A study of Drosophila melanogaster with 2 samples.

Results

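The genes examined here encode the midline repellent Slit, its Roundabout receptors and the Commissureless proteins of Drosophila melanogaster. They were taken by symbol (sli, robo1, robo2, robo3, comm and comm2), and all 6 were matched in the Ensembl annotation of the dm6 assembly, which lists 13945 protein-coding genes on the 6 chromosome arms used. A gene was said to carry a peak when a peak summit lay within it or within 5 kb either side, which gave 7 summits at these genes of 2682 in all.

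The peaks came from chromatin immunoprecipitation and sequencing (ChIP-seq) of whole embryos aged 0 to 24 h. The embryos were of a transgenic strain (sim-GFP) that makes a fusion of eGFP with Single-minded (Sim), a transcription factor, and the fusion was pulled down with an antibody against GFP, although the labels list the antibody as sim. The single group held 2 samples, called biological replicates 1 and 2 in the labels, and a control experiment named in the labels was not analysed here. Because the chromatin came from whole embryos, the lists do not tell in which cells a peak arose.

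Slit is secreted by cells at the midline of the embryonic nerve cord and repels axons that carry Robo receptors on their growth cones. Commissureless keeps the Robo1 receptor away from the surface of commissural axons until they have crossed. Robo2 and Robo3 also help to set how far from the midline an axon runs. Sim, a bHLH-PAS protein, pairs with Tango at the CNS midline element (CME), whose core is ACGTG, and sli is a textbook gene of the midline programme that Sim directs.

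Peaks were listed for the pooled replicates in an optimal list of 2682 peaks and a conservative list of 2451, and for each replicate alone in lists of 1071 peaks (replicate 1) and 1676 peaks (replicate 2). All 4 lists were limited by IDR, the irreproducible discovery rate, which is low for peaks whose rank repeats between sets of calls. Their lowest scaled score of 830 corresponds to an IDR of 0.01. Longer ranked lists without this limit held 134212 pooled, 96271 replicate 1 and 88343 replicate 2 peaks on the 6 arms. The signal value of a peak is the strength given by the authors' peak caller, has no unit and is used here only within its own list. The lists hold no read counts, and the depth is unknown.

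In the optimal list 5 of the 6 genes carried a summit: sli had 3, and robo1, robo2, comm and comm2 had 1 each. Only robo3 had none. Among all protein-coding genes 30.0% carried one. Long genes carried summits more often, so each gene was also set beside the other protein-coding genes of length within 25% of its own. The share with a summit was 55.8% for genes of the length of sli (52624 bp), 36.0% for robo1 (8447 bp), 45.8% for robo2 (40368 bp) and 46.3% for robo3 (40180 bp). For comm (6920 bp) it was 34.1% and for comm2 (2257 bp) 29.5%. The conservative list had a summit at 4 of the 6 genes, against 27.8% of all protein-coding genes, and comm was the gene lost. In replicate 2 alone sli and robo2 had summits, 2 of 6 genes, against 21.9% of all. In replicate 1 alone robo2 had a summit, 1 of 6 genes and close to the 15.0% of all genes. For the conservative and replicate lists no share among genes of like length is given, and sli and robo2 are the 2 longest of the 6 genes. These counts describe a short list of genes chosen with earlier results known, and no test was made on them.

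**Figure D1:**
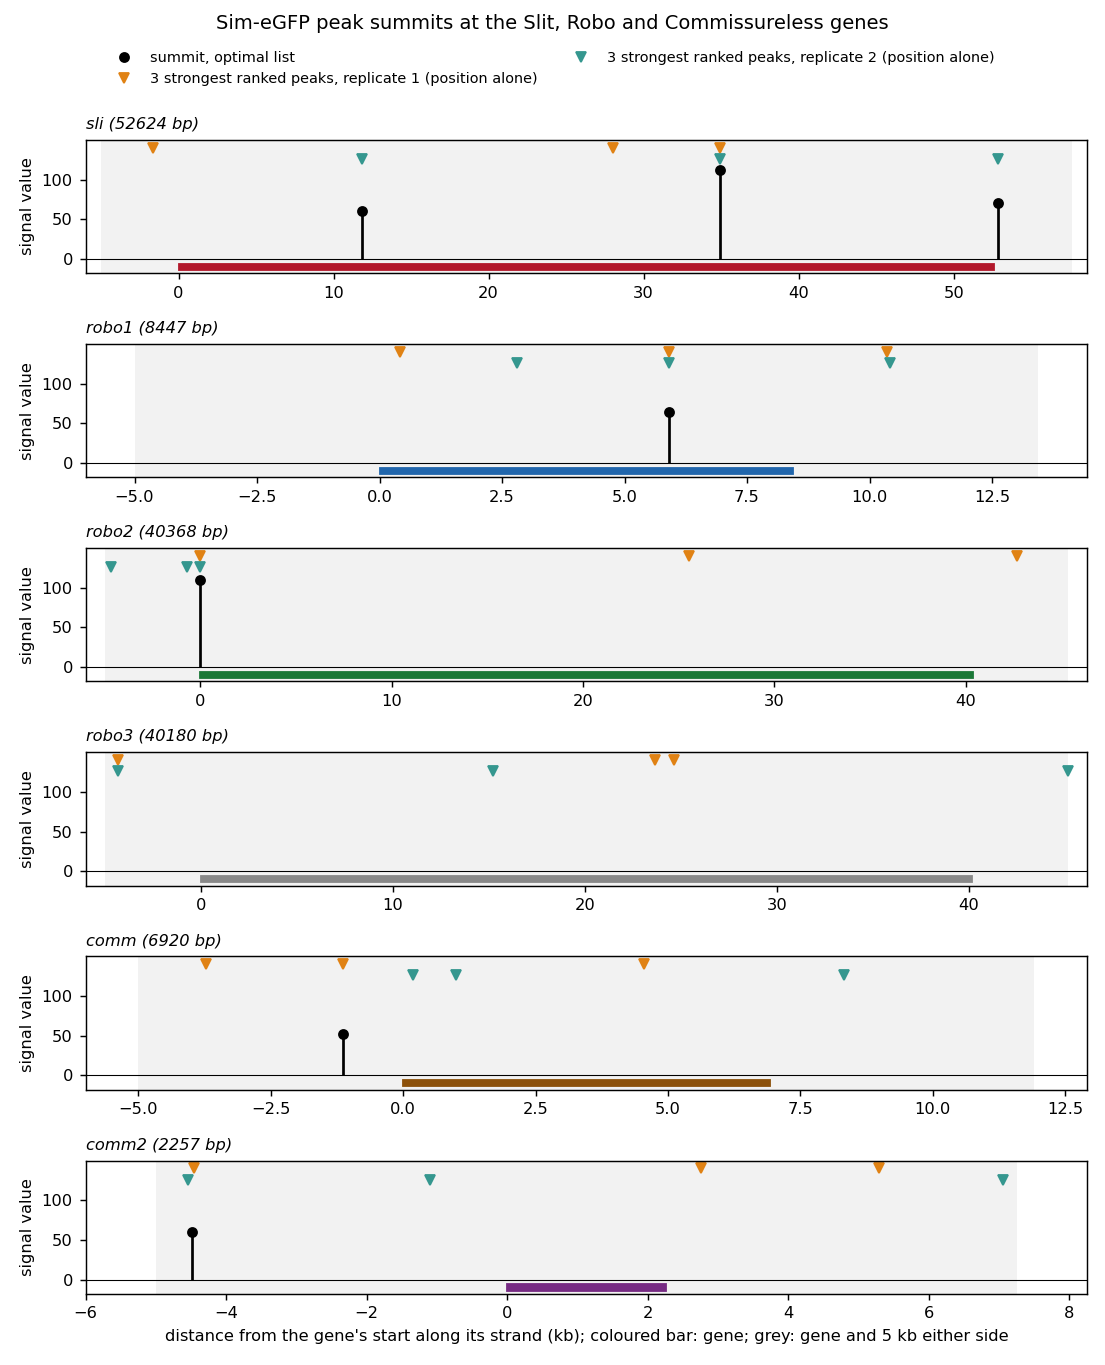
Peak summits along the 6 genes, with the distance from the gene's start in kb on the x axis and the signal value in the optimal list on the y axis. Black stems are the 7 optimal summits, triangles mark the positions of the 3 strongest ranked peaks of each replicate, the coloured bar is the gene, and the grey area adds 5 kb either side. Stems reach 112 at sli and 110 at robo2, and robo3 has none.

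**Figure D2:**
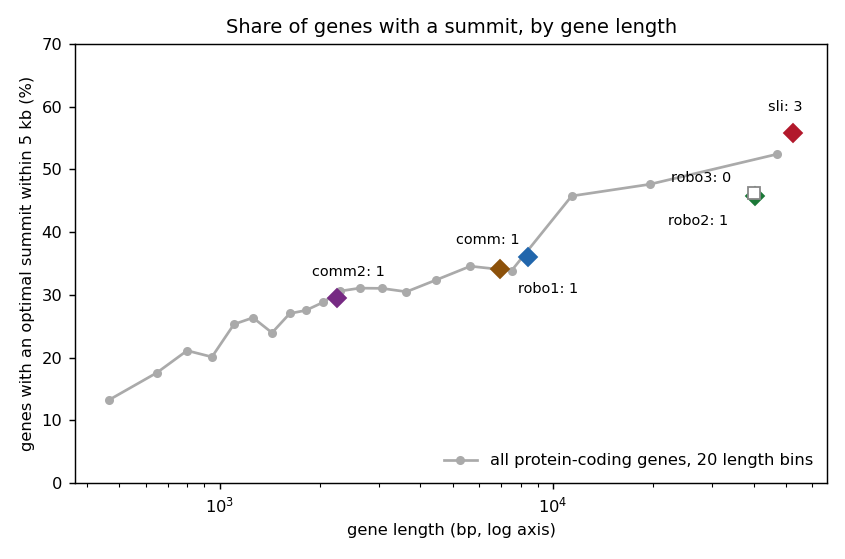
Share of protein-coding genes with an optimal summit within 5 kb (y axis, %) against gene length (x axis, bp, log axis). Grey points are 20 bins of all genes; each coloured symbol is the share among genes of length within 25% of the named gene, with that gene's own number of summits beside it, and the open square is robo3, which had 0.

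The ligand gene sli (FBgn0264089, dm6 chr2R:15869495-15922118, minus strand, 6 transcripts) held 3 summits. The strongest peak, chr2R:15887018-15887321, lay in intron 2 of 19 of the transcript sli-RD, 3747 bp downstream of the start of the short transcript sli-RE and 34948 bp from the start of the gene. Its signal value was 112, rank 647 of 2682. In the ranked lists of the replicates it had a signal value of 42.3 in replicate 1 (rank 959) and 61.9 in replicate 2 (rank 683). Both replicates thus listed a peak there, with summits 4 bp apart. It was also the strongest ranked peak within 5 kb of sli in either replicate, but it passed the IDR limit in replicate 2 (IDR of 0.0039 or less) and not in replicate 1 (IDR 0.0643).

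The other sli summits were weaker and stood on different ground. A peak at chr2R:15869115-15869418 had a signal value of 70.9 (rank 1476), with 28.0 in replicate 1 and 41.9 in replicate 2. Its summit lay 228 bp beyond the 3' end of sli and 120 bp from the transcription start site (TSS) of Rif1, a replication timing gene, so distance alone does not assign it to sli. It passed the IDR limit in replicate 2 and not in replicate 1. A peak in intron 1, chr2R:15910132-15910435, had a signal value of 60.3 (rank 2023), with 23.8 in replicate 1 and 38.1 in replicate 2. That peak passed in neither replicate alone (IDR 0.379 and 0.494) but was in the conservative list. Of the 278 genes of like length, 45 (16.2%) also had 3 or more summits. The nearest summit outside the 5 kb limit lay 8426 bp upstream of sli and 1391 bp from a TSS of bdg, with a signal value of 78.1, so that 4 summits would count with 10 kb either side.

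The receptor gene robo1 (FBgn0005631, chr2R:22692524-22700970, minus strand) encodes a Robo receptor that Commissureless acts on. Its peak, chr2R:22694910-22695213, lay in coding sequence, in exon 18 of 18 of robo1-RA and 5908 bp from the start of the gene. The signal value was 64.0 (rank 1820) in the optimal list, with 35.0 in replicate 1 (rank 1502) and 25.1 in replicate 2 (rank 5553). It was in the conservative list but passed the limit in neither replicate alone. The replicates differed in which peak was strongest: replicate 2 had its strongest peak 3102 bp away, in coding sequence 2811 bp from the gene's start, with a signal value of 35.2. Outside the 5 kb limit stood a much stronger peak, 14092 bp downstream of robo1, with a signal value of 397 (rank 34) and present in both replicate lists. Its nearest TSS was that of RYBP, 7667 bp away.

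The receptor gene robo3 (FBgn0041097, chr2L:1256417-1296596, plus strand) had 0 summits in the optimal, conservative and both replicate lists. Its strongest pooled ranked peak lay 4233 bp upstream of the gene with a signal value of 35.7, rank 10799 of 134212 and IDR 0.264. Weak peaks were listed near that place in both replicates, 4329 bp upstream with a signal value of 21.1 in replicate 1 and 4324 bp upstream with 19.4 in replicate 2. The replicates' ranked lists held 0.658 peaks per kb in replicate 1 and 0.399 in replicate 2 over the gene and 5 kb either side, against 0.719 and 0.660 per kb over the 6 arms. The other 5 genes ranged between 1.01 and 1.31 per kb in replicate 1 and between 0.705 and 1.22 in replicate 2, so robo3 alone of the 6 was below the genome's density in both. The pooled ranked list did not show this: it held 1.32 peaks per kb at robo3, against 1.00 over the 6 arms, within the 1.14 to 1.71 of the other 5 genes. The nearest optimal summits were 70662 bp upstream and 65883 bp downstream of robo3.

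The receptor gene robo2 (FBgn0002543, chr2L:1380086-1420453, minus strand) had the most repeatable peak of the 6 genes. The peak at chr2L:1420296-1420599 had its summit in the 5' UTR, 5 bp downstream of the TSS shared by both transcripts, with no other protein-coding gene within 5 kb. Its signal value was 110 (rank 667), with 52.8 in replicate 1 (rank 582) and 52.9 in replicate 2 (rank 952). It was in all 4 thresholded lists, and the summits of the replicates were 12 bp apart. The part of the peak upstream of the TSS is shown because it is the promoter side of the only peak here called in each replicate. Like the others printed here, it was read from RefSeq's Release 6 (dm6) genome. It runs 5′ to 3′ on the minus strand from chr2L:1420599 to the base before the TSS, holds 55.5% G or C, and has no capitals because ACGTG was not found in it.
robo2: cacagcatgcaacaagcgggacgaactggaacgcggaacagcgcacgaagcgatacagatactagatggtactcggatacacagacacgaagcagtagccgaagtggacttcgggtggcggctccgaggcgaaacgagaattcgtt
A further summit stood just outside the limit, 6456 bp upstream of robo2, with a signal value of 68.0 and present in the replicate 2 list.

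The sorting gene comm (FBgn0010105, chr3L:15721511-15728430, minus strand) had the weakest of the 7 peaks. The peak at chr3L:15729407-15729710 lay between genes, 1129 bp upstream of the TSS of comm, with a signal value of 52.8 (rank 2419). Replicate 1 listed it as its strongest peak at comm, with a signal value of 28.9 (IDR 0.0175), and replicate 2 listed it with 22.4 (IDR 0.741). Neither passed the limit, and the peak was not in the conservative list. In replicate 2 the strongest peak at comm was 997 bp inside the gene, in an intron, with a signal value of 31.7. Of the motifs searched, GAGAG, the pattern of GAGA factor, was present 11 times in the 300 bases around the summit shown here, all in the part toward the gene. Overlapping matches were each counted. No share of other peaks over 300 bases is given here, so the 11 stand without a background. The longest run of alternating G and A was 22 bases, and GAGAG was not found within 50 bp of the summit. The sequence is shown 5′ to 3′ on the minus strand (chr3L:15729409-15729708), with capitals for GAGAG.
comm: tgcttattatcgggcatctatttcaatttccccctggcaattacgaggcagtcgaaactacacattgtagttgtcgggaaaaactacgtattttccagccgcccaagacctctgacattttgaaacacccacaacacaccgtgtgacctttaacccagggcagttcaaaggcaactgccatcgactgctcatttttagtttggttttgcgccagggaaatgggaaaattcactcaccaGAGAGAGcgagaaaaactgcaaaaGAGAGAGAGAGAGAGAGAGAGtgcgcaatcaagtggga

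The related gene comm2 (FBgn0041160, chr3L:15697594-15699850, minus strand, 1 transcript) encodes another member of the Commissureless family. Its peak at chr3L:15704185-15704488 was the summit closest to the 5 kb limit on the inside, 4487 bp upstream of the TSS and with no other protein-coding gene within 5 kb. The signal value was 59.5 (rank 2076), with 27.3 in replicate 1 (IDR 0.0927) and 34.6 in replicate 2 (IDR 0.0194). In each replicate this was the strongest ranked peak at comm2, although neither passed the limit alone, and the summits of the replicates were 85 bp apart. This was also the only peak of the 7 to hold the CME core. ACGTG was present at 2 places. At the second in the printed order the letters read CACGTG, a palindrome that holds the core on both strands. Neither place read TACGTG, the form known from midline enhancers. The sequence is shown for these cores, 5′ to 3′ on the minus strand (chr3L:15704187-15704486), with capitals for ACGTG on either strand.
comm2: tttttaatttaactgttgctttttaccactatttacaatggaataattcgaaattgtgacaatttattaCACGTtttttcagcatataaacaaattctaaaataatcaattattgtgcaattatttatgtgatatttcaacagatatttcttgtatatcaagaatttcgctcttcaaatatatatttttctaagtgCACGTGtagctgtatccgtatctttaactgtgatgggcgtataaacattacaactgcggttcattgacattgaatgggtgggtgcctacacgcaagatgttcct
The middle of the palindromic core was 49 bp from the pooled summit, so the core crossed the edge of the 50 bp window, and that of the other core was 78 bp away. In the replicates' own lists the summit of replicate 1 lay 14 bp from the palindromic core and that of replicate 2 lay 28 bp from the other core. Each replicate thus had ACGTG within 50 bp of its own strongest summit at comm2, a reading made after the values were seen. The replicates met different cores, so this is not the same site seen in both. Over all ranked peaks 9.21% in replicate 1 and 8.96% in replicate 2 held ACGTG that close. Those shares are not a like background for a peak singled out because it holds ACGTG at 2 places. No result is drawn from this reading.

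**Figure D3:**
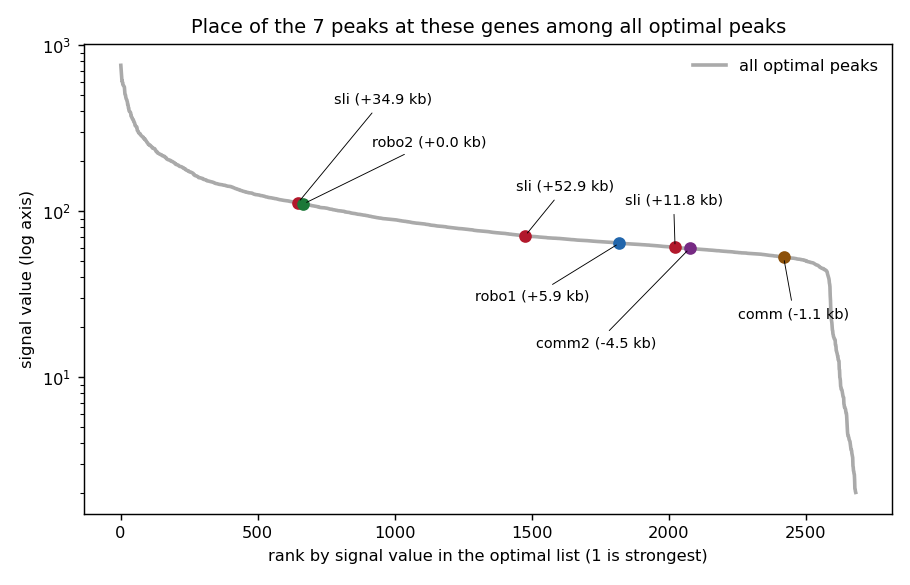
Signal value (y axis, log axis) against rank (x axis) for all 2682 optimal peaks in grey, with the 7 peaks at the Slit, Robo and Commissureless genes as coloured points labelled with their distance from the gene's start. The strongest sli peak and the robo2 peak sit together at ranks 647 and 667, and the other 5 lie below the median signal value of 75.1.

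Set among all optimal peaks, 2 of the 7 peaks were above the median signal value of 75.1, the intron 2 peak of sli and the robo2 peak. These exceeded 75.9% and 75.1% of optimal peaks, while the comm peak exceeded 9.81%. All 7 had the greatest width in the list, 304 bp, as did 92.2% of optimal peaks, so their summits are the centres of peaks of fixed width. Of the 7, 1 was overlapped in both replicate lists (robo2), against 30.8% of optimal peaks. A further 2 were overlapped in replicate 2 alone, both at sli, and 4 in neither, against 27.4% and 34.3% of optimal peaks. With the ranked lists in place of the thresholded ones all 7 were overlapped in both replicates, but so long a list overlaps nearly all optimal peaks (2654 of 2682 in replicate 1 and 2677 in replicate 2). Within 500 bp of a TSS lay 2 of the 7 summits, at robo2 and at the Rif1 end of sli, against 40.3% of optimal summits.

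**Figure D4:**
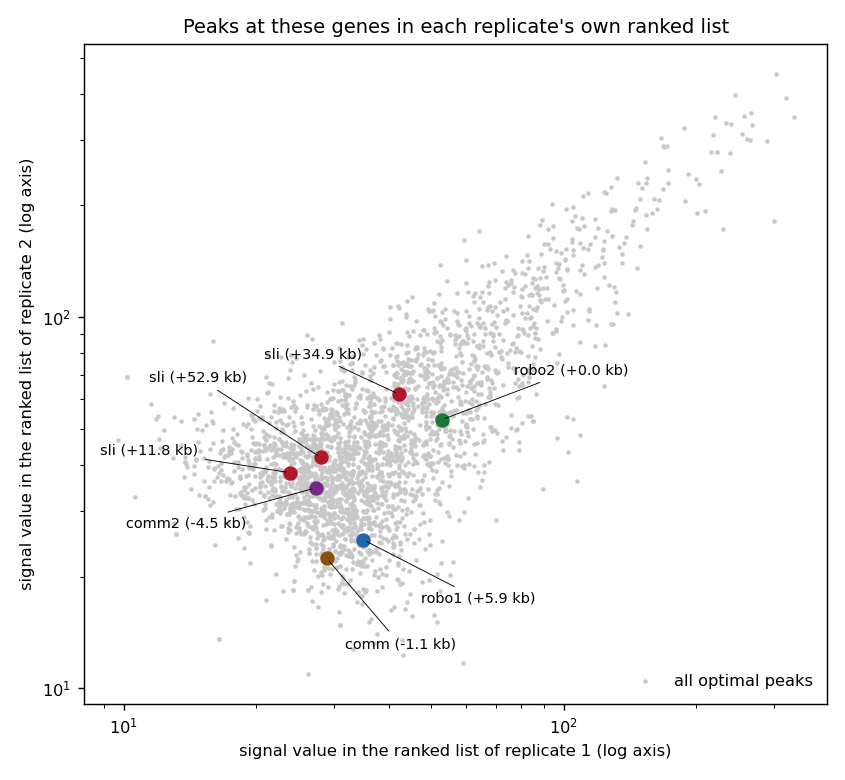
Signal value in the ranked list of replicate 2 (y axis, log axis) against that of replicate 1 (x axis, log axis) at each optimal peak; grey points are all optimal peaks and coloured points the 7 peaks at these genes. The robo2 peak lies at 52.8 and 52.9, the strongest sli peak at 42.3 and 61.9, and the comm peak at 28.9 and 22.4.

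Each replicate's signal values at the 7 peaks were also placed among those of all optimal peaks in the same replicate. The robo2 peak exceeded 78.4% of them in replicate 1 and 65.0% in replicate 2, and the intron 2 peak of sli exceeded 64.8% and 74.9%. For robo1 the places were 49.1% in replicate 1 and 7.66% in replicate 2, and for comm 29.2% and 4.33%. The comm2 peak was at 24.2% and 29.2%. The robo1 and comm peaks were thus near the bottom in replicate 2, whereas the sli peaks stood higher in replicate 2 than in replicate 1 at each of their 3 places. The strongest ranked peaks of the 2 replicates lay within 100 bp of each other at 3 of the 6 genes (sli, robo2 and comm2), against 28.8% of the 13483 protein-coding genes with a ranked peak in both.

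The CME core was not found within 50 bp of any of the 7 pooled summits, against 7.27% of all optimal summits and 9.25% of windows 300 bp to either side of them. With so low a background share, the 0 of 7 carries no result about these genes. Over the whole peak, 1 of the 7 held ACGTG (comm2), against 22.1% of optimal peaks, and 3.32% of optimal peaks held it at 2 or more places as comm2 did. The nearest core was 175 bp from the strongest sli summit, 225 bp from the robo2 summit, 279 bp from the comm summit and 814 bp from the robo1 summit. Over all optimal summits the median distance was 374 bp. Of the other 8 motifs searched within 50 bp on both strands, GAGAG was present at 2 of the 7 summits, both in introns of sli. It was present at 12.8% of optimal summits and in 16.6% of the flanking windows. ACAAAG, a Sox pattern, was present at the sli summit near Rif1, against 6.64% of optimal summits and 7.59% of the flanking windows. None of the 7 held the midline form TACGTG, the palindromic E-box CACGTG, the further E-box CATATG or the homeodomain core TAATTA within 50 bp. Nor did any hold the POU octamer ATGCAAAT or the further Sox pattern ACAATG. Between 1.04% and 9.06% of optimal summits held these 6 motifs. A match is a description of letters, and its absence says only that these letters are not in the window.

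**Figure D5:**
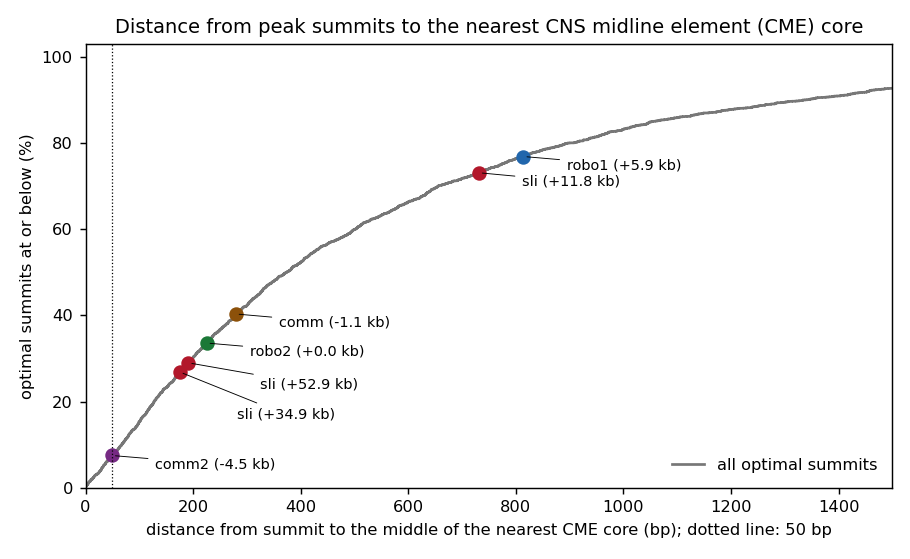
Share of optimal summits (y axis, %) whose nearest CME core lies at or below the distance on the x axis (bp); the grey line is all 2682 optimal summits and coloured points are the 7 at these genes. The comm2 summit is at 49 bp, next to the dotted line at 50 bp, and the robo1 summit is at 814 bp.

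Base composition set the peaks apart among themselves. In windows of 101 bp, G and C made up 23.8% at comm2, 25.7% at the intron 2 summit of sli and 29.7% at the sli summit near Rif1. They made up 48.5% at comm, 56.4% at robo2, 60.4% at the intron 1 summit of sli and 62.4% at robo1. The mean over all optimal summits was 35.9% (SD 11.0, n = 2682 summits). Thus 4 of the 7 lay more than 1 SD above it, as did 17.9% of optimal summits; this comparison was chosen after the values were seen.

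Genes outside the 6 that are known in the fly for Slit and Robo signalling or its control were also examined. Of 33 such genes, 20 (60.6%) carried an optimal summit, against 30.0% of protein-coding genes. Those with a summit had a median length of 34856 bp and the 13 without had 7273 bp. Among all protein-coding genes, 47.6% carried one in the length bin with a median of 19523 bp, and 52.4% in that of 47045 bp. In the bin with a median of 7512 bp it was 33.9%. This list was not set beside genes of like length, so its share cannot be told apart from an effect of length. Dg and Rho1 were counted through the same summit. Strong peaks were at cno (signal value 399), which encodes the junction scaffold Canoe, and at fra (130), the Netrin receptor gene that also raises comm transcription. The glypican gene dlp had a peak of 118. Further peaks were at the GTPase genes Rac1 (98.6) and Cdc42 (95.7), at comm3 (98.3), the remaining Commissureless relative, and at the zinc finger gene nerfin-1 (95.0). The peaks named for fra, dlp, comm3, Rac1, Cdc42 and nerfin-1 had their nearest TSS at another gene. For 4 of the 20 genes the strongest peak was overlapped in each replicate list, against 30.8% of all optimal peaks. Among the 4 were cno, Cdc42 and nerfin-1. None of the 20 held ACGTG within 50 bp of its strongest summit, against 7.27% of all optimal summits. With so low a background share, this count carries no result about the pathway genes. Among the 13 genes with no summit were tgo, which encodes Sim's partner Tango, and Nedd4, Abl and dock, which act with Commissureless or downstream of Robo.

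For each gene with a summit, the gene most like it was sought by the highest signal values in the ranked lists of the 2 replicates, among genes of like length that carried an optimal summit. The nearest to robo2 was dlp, also in the pathway list, with 53.3 in replicate 1 and 54.0 in replicate 2. Unlike the robo2 peak, the dlp peak was overlapped in the replicate 1 list alone. It lay in an intron, 19727 bp from the nearest TSS. The nearest to sli was ec (40.4 and 60.5 in replicates 1 and 2), and the nearest to comm2 was gcm, the glial fate gene (27.4 and 34.7). The nearest to robo1 was PolE1 and to comm vig. For robo1 and comm the values of the 2 replicates came from different peaks, 3102 bp and 2126 bp apart. Their likeness is thus not that of the optimal peaks described above. Likeness over 2 replicates is a description of 2 values each, taken from between 154 and 834 candidate genes.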

How the data were processed

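Peak lists of 1 group of 2 biological replicates were analysed. Per the sample readme files deposited by the authors, the lists are in dm6 coordinates, the pooled lists derive from the alignments of both replicates, and each replicate list derives from its own. The aligner and peak caller used, with their parameters, were not given in the sources used here. In the deposited lists column 5 is the scaled IDR score, column 7 the signal value and column 9 a −log10 q-value, all made by the authors; the score was turned into an IDR as 2 to the power of minus score over 125. Of the 8 lists 7 were used. Summits were column 2 plus column 10, written 1-based.

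Genes and transcription start sites came from Ensembl release 115 (BDGP6, dm6 coordinates), and the printed bases from RefSeq's Release 6 of it; all 6 genes have equal coordinates in both. Pseudogenes and transposable elements were left out. Overlap meant at least 1 bp. Motifs were searched on both strands. The genes, lists and alternatives were chosen with earlier results of these data known. Named were the 6 genes, up to 8 listed pathway genes by signal value, genes sharing a summit, and the most alike gene; the count of strongest peaks within 100 bp was chosen after values were seen, as were the pathway genes named without a summit and the genes nearest to summits outside 5 kb. A pathway gene that this rule would name is not reported here. No contrast between samples exists, so nothing was tested; counts stand beside the share over all genes or peaks. Sequences of the arm holding sli and robo1, and of UTRs, are not shown. Scripts were tested on made-up data. Python 3.11.15, numpy 2.4.6, pandas 2.3.3 and matplotlib 3.10.9 were used.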

Additional observations from a re-analysis of the deposited data

How the results depend on the processing

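The counts recomputed under alternatives were genes with a summit (5), summits at the genes (7), summits found in both replicates (1), summits with ACGTG (0) and pathway genes with a summit (20). The count of genes fell to 3 with 1 kb either side, with the gene body alone and with a score of 1000, and to 2 among the 1341 optimal peaks of highest signal value; comm and comm2 drop out under each of these. Summits at the genes numbered 4 with the gene body alone and with a score of 1000, and 2 among the 1341. Without replicate 1 or without replicate 2 the genes with a summit ranged from 1 to 2, summits at them from 1 to 3, and pathway genes from 10 to 15. With the ranked replicate lists 7 summits were found in both replicates. With 100 bp either side of the summit, or the whole peak, 1 summit held ACGTG, that of comm2. Of 52 recomputed counts 37 were unchanged or within 1.5 times the value reported, among them those with the conservative list, merged peaks and the nearest TSS. Many of the 37 were the ACGTG count staying at 0 or the count in both replicates staying at 1. Under narrower windows or shorter lists such counts could hardly move, so the 37 do not measure how stable the results are. No paired analysis was possible because the series has 1 group. Read depth is unknown, so a missing summit at robo3 cannot be set against it.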

Other observations

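In the ranked lists, ACGTG lay within 50 bp of the summit at 28 of 292 pooled peaks at the 6 genes (9.59%), against 9.03% of all pooled ranked peaks. In replicate 1 it did so at 22 of 202 peaks (10.9%), against 9.21% of all, and in replicate 2 at 13 of 189 (6.88%), against 8.96%. These shares lie near their backgrounds. At sli the counts were 13 of 87 in the pooled list, 6 of 63 in replicate 1 and 5 of 72 in replicate 2. The pooled counts were 2 of 21 at robo1, 6 of 74 at robo2, 4 of 66 at robo3, 3 of 23 at comm and 0 of 21 at comm2. At comm the second strongest pooled ranked peak, 123 bp downstream of the TSS in the 5' UTR, held ACGTG within 50 bp of its summit, with a signal value of 46.4, rank 4387 of 134212 and IDR 0.0916. At robo2 the strongest such pooled peak lay in an intron 10898 bp from the start, with a signal value of 38.5 and IDR 0.0896. At sli it lay in coding sequence with 36.9 and IDR 0.240. Places with ACGTG numbered 62 in sli and 5 kb either side (0.99 per kb), 15 at comm2 (1.22 per kb), 19 at comm (1.12 per kb), 40 at robo3 (0.797 per kb), 14 at robo1 (0.759 per kb) and 35 at robo2 (0.695 per kb), against 0.889 per kb over the 6 arms.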
